A study of Mus musculus with 14 samples.

Results

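Transcripts of the insulin-like growth factor (IGF) family were examined in transplanted mouse hearts measured on MG-U74Av2 arrays, oligonucleotide arrays on which a probe set is a group of short probes for 1 transcript. The family was taken as 9 genes, the growth factors Igf1 and Igf2, the acid-labile subunit Igfals and the binding proteins Igfbp2 to Igfbp7. Its members were the probe sets that the platform annotation assigns to these genes by current symbol or older synonym. That gave 15 of the 12488 probe sets, of which 14 were annotated to 1 member alone. Of the 8251 genes with a probe set annotated to them alone, 8 were members. Igfbp5 had no probe set of its own and was represented by 100566_at, which the annotation assigns to Igfbp5 and to Tmem119 together. No expression value enters the rule, but the family was chosen with results from these same arrays known, so the p-values below describe the fit and are not independent evidence.

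The 14 arrays fell into 5 groups. Tolerizing allografts were Balb/c hearts in C57/BL6 recipients given anti CD80/86 mAb, antibodies against the costimulatory ligands CD80 and CD86, with 3 arrays at day 70 and 3 at day 7. Rejecting allografts were Balb/c hearts in C57/BL6 recipients with no antibody named, with 3 arrays at day 7. Isografts were C57/BL6 hearts in C57/BL6 recipients, with 2 arrays at day 70 and 3 at day 7. Every heart was a transplant, and no heart left in its own animal was analysed here. Donor strain and allogeneic status cannot be told apart in any comparison with isografts, nor can the antibody and its effect on rejection. The labels give neither age nor sex, and do not say whether replicates were separate animals, so the p-values measure the spread between these arrays.

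Signals had been scaled to a common level, with a trimmed mean between 100.06 and 100.07 on every array. The floor used here was a signal of 11.0, the 25th percentile of all values, and between 71.9% and 78.7% of probe sets lay above it on an array. The accession numbers formed 2 consecutive runs, a first run of 5 arrays with 1 of each group and a second run of 9. The 3′ probe set of 18S ribosomal RNA had a signal of 30.3 to 83.4 in the first run and 120.4 to 254.6 in the second, so within-run differences are given for the called family probe sets. The third rejecting array, from the first run, stood apart and was the lowest of all 14 arrays for 8 of the 13 tested family probe sets. Summed signals of the 8 listed cardiomyocyte markers were 28912 to 45705 in day 7 isografts and 4549 to 20131 in rejecting hearts. None of the 8 lay at or under the floor on all arrays. The same held for every cell type marker list used, so it does not by itself identify the tissue.

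IGF1 and IGF2 are small secreted hormones that signal through the IGF1 receptor, a tyrosine kinase upstream of phosphatidylinositol 3-kinase and Akt. IGF2 is also bound by the IGF2 receptor, which carries it to lysosomes. Most circulating IGF is held by binding proteins, and the acid-labile subunit, made chiefly in liver, locks IGF with IGFBP3 or IGFBP5 in a long-lived complex. In the heart, IGF1 is known for promoting cardiomyocyte growth and survival. Igf2 is an imprinted gene, expressed from the paternal copy in most mouse tissues and chiefly before birth.

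Igf2 and Igfals were the members with a probe set of their own that differed between allografts and isografts, and upstream sequence is shown for these 2 genes for that reason. The windows are the 250 bases before annotated RefSeq start sites in build GRCm38.p6, printed 5′ to 3′ on the gene's own strand, with matches to searched motifs in capitals. RefSeq gave 15 such windows for the 9 members. Igf2 had 4 start sites, on the minus strand of chromosome 7. The third window covered chr7:142658805-142659054 and the fourth chr7:142657497-142657746. Igfals had 3 start sites, on the plus strand of chromosome 17. Its first window covered chr17:24877594-24877843 and its second chr17:24877981-24878230.
Igf2 start site 3: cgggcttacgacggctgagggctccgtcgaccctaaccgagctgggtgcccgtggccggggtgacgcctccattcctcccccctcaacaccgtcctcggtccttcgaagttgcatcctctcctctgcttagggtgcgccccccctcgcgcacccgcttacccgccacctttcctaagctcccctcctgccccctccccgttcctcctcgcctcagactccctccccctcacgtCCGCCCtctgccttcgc
Igf2 start site 4: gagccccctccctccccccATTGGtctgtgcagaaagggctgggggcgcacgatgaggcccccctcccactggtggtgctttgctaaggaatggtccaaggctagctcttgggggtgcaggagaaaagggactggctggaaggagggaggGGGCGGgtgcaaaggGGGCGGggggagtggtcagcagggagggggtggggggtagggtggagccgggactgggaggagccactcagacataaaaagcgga
Igfals start site 1: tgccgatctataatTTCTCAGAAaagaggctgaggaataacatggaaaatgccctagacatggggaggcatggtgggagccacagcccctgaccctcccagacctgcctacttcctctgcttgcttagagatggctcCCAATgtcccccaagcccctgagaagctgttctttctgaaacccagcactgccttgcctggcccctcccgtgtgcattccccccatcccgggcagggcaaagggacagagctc
Igfals start site 2: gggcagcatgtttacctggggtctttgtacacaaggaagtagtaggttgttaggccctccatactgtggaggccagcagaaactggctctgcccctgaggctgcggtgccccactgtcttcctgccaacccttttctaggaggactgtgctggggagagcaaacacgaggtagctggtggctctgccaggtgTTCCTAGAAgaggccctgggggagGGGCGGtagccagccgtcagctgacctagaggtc

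The motifs were searched on both strands as exact letters, namely the TATA box TATAAA, the GC box GGGCGG, the CCAAT box CCAAT and TTCNNNGAA, the interferon-gamma activated site that STAT5 also reads. Igf2 start site 3 held 1 GC box on the opposite strand, and start site 4 held 2 GC boxes and, on the opposite strand, 1 CCAAT box. The 2 other Igf2 windows held none of these motifs. Both Igfals windows shown held TTCNNNGAA, beside a CCAAT box at the first start site and a GC box at the second. No other window of the family held that motif, so the Igfals windows shown are the ones that hold it. The third Igfals window, not shown, held 2 GC boxes and 1 CCAAT box. Over all 32851 windows of the same length, 12.37% held TATAAA, 32.74% GGGCGG, 33.85% CCAAT and 7.02% TTCNNNGAA. The Igf2 windows shown were 68.8% and 66.0% G and C and the 2 others 50.8% and 47.6%, against a median of 52.4% over all windows. A match describes the letters of the reference and shows no binding.

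Igf2 was lower in every allograft group than in isografts of the same day, and lowest in rejecting hearts. Its probe set 98623_g_at had signals of 100.2, 130.5 and 127.2 in tolerizing allografts at day 70, 236.4, 199.3 and 204.0 in tolerizing allografts at day 7 and 98.8, 80.2 and 88.3 in rejecting allografts. The isografts had 534.4 and 405.0 at day 70 and 494.6, 533.5 and 798.5 at day 7. The highest of the 9 allograft signals, 236.4, lay under the lowest of the 5 isograft signals, 405.0, so no allograft overlapped an isograft. Group means were 119 ± 16.6 in day 70 tolerizing, 213 ± 20.2 in day 7 tolerizing and 89.1 ± 9.33 in rejecting hearts, against 470 ± 91.5 in day 70 isografts and 609 ± 165 in day 7 isografts (SD, n = 3, 3, 3, 2 and 3).

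Differences were tested with limma, a linear model of log2 signal over all 14 arrays, with Benjamini-Hochberg adjustment over 10395 probe sets and a threshold of 0.05. Igf2 fell by 2.74 on the log2 scale in rejecting hearts relative to day 7 isografts (SE 0.20, adjusted p = 1.159e-05), a 6.70-fold lower level. In tolerizing hearts at day 7 it fell by 1.48 relative to isografts (SE 0.20, adjusted p = 0.001899), a 2.80-fold lower level. At day 70 tolerizing hearts were lower by 3.93-fold, a log2 difference of -1.97 (SE 0.23, adjusted p = 0.0003062). Each of these directions held within both accession runs. The log2 differences within the first and second runs were -3.18 and -2.53 for rejecting against isograft hearts, -1.97 and -1.24 for day 7 tolerizing hearts and -1.67 and -2.22 for day 70 tolerizing hearts, each against isografts of that day. Without the third rejecting array the rejecting difference was -2.74 (adjusted p = 1.722e-05). In bulk tissue, fewer cells that express a gene and less RNA per cell cannot be told apart.

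Among the allografts, Igf2 was 2.40-fold higher in tolerizing than in rejecting hearts at day 7, a log2 difference of 1.26 (SE 0.20, adjusted p = 0.008285). The 3 tolerizing signals, from 199.3 to 236.4, all lay above the 3 rejecting ones, from 80.2 to 98.8, and the log2 difference was 1.21 within the first run and 1.29 within the second. Tolerizing signals at day 70 all lay below those at day 7, but the log2 difference of -0.84 did not pass the threshold (SE 0.20, adjusted p = 0.2527). Isograft signals at the 2 days overlapped, with a log2 difference of -0.36 (SE 0.23, adjusted p = 0.9696). The change of the tolerizing-isograft difference between days was -0.49 (SE 0.31, adjusted p = 1). From low to high the group means ran rejecting, tolerizing day 70, tolerizing day 7, isograft day 70 and isograft day 7, and the 2 isograft groups were the neighbours in this order whose arrays overlapped. Rejecting day 7 and tolerizing day 70 hearts were not tested against each other. The day 7 call of tolerizing hearts against isografts was lost in the second run alone (adjusted p = 0.06873) and with the 2 groups fitted alone (0.05057). That tolerizing call was also lost in a fit adjusted for the 3′ to 5′ ratio of beta-actin, a measure of RNA length (0.08312). Fitting 2 groups alone also ended the call at day 70 (0.05876) and that between tolerizing and rejecting hearts (0.07916).

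A second Igf2 probe set, 98622_at, was designed from the same accession but had signals of 1.1 to 6.0 on the 14 arrays. It lay under the floor everywhere and was not tested, so the Igf2 result rests on 1 probe set.

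**Figure D1:**
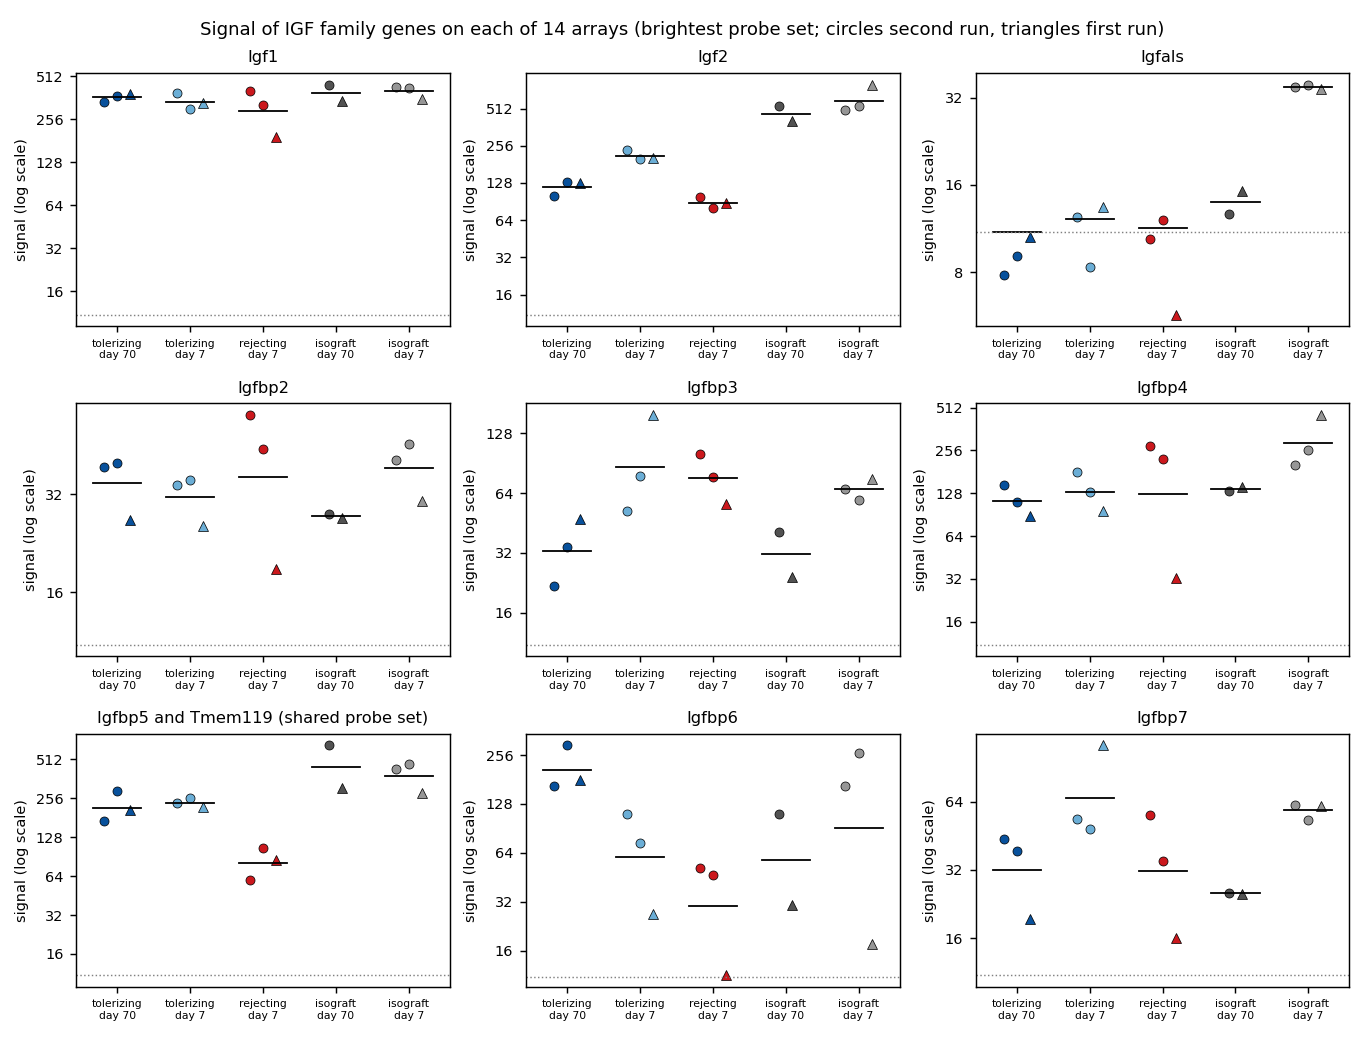
Signal of each family gene on each of the 14 arrays, by its brightest probe set, with signal on a log scale and the 5 groups along the horizontal axis. Points are arrays, triangles being the first and circles the second accession run, bars are geometric means with signals under the floor set to it, and the dotted line is the floor of 11.0. All 9 allograft points for Igf2 lie at or under 236.4 and all 5 isograft points at or above 405.0, whereas Igfals stands apart in the day 7 isografts.

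Marker transcripts of several heart cell types were lower, as Igf2 was, in rejecting hearts than in day 7 isografts. Over all tested probe sets 9.18% were called lower and 8.54% higher in this comparison. Of 8 cardiomyocyte markers, 7 were lower in rejecting than in isograft hearts at day 7, with summed signals of 4549 to 20131 in rejecting hearts against 28912 to 45705 in isografts. Of 8 fibroblast markers 4 were lower, with sums of 3068 to 10873 in rejecting hearts against 10402 to 16482 in isografts, which overlapped. Of 8 endothelial markers 4 were lower, with sums of 1048 to 1209 in rejecting hearts against 1702 to 2462 in isografts. Of 8 macrophage markers 6 were higher and 1 lower, with sums of 4707 to 5684 in rejecting hearts against 2171 to 2611 in isografts, and 5 of 6 T cell markers were higher. No gene of these lists lay at or under the floor on all arrays, and the part of these cell types in the lower Igf2, Igfals and Igfbp5 and Tmem119 signals was not tested.

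In tolerizing hearts no cardiomyocyte, fibroblast or endothelial marker was called against isografts at either day. Higher were 1 of 6 T cell markers at day 7 and 2 of 8 macrophage markers at day 70. Over all tested probe sets 0.75% were lower and 0.943% higher at day 7, and 0.856% lower and 2.35% higher at day 70. Median log2 differences of cardiomyocyte, fibroblast and endothelial markers were -0.61, -0.01 and -0.42 at day 7. The day 70 medians were -0.24, -0.44 and -0.14. At day 70 the cardiomyocyte sums were 29380 to 39443 in tolerizing hearts against 34265 to 40178 in isografts and overlapped. The fibroblast sums were 5553 to 6878 in tolerizing hearts against 7840 to 9422 in isografts and did not overlap. The endothelial sums were 1250 to 1967 in tolerizing hearts against 1561 to 2018 in isografts and overlapped. Other sums without overlap at day 70 were higher for macrophage markers, 2749 to 3826 in tolerizing hearts against 873 to 1990 in isografts. They were also higher for T cell markers, 308 to 688 against 150 to 154, and B cell markers, 176 to 285 against 154 to 167. Neutrophil sums were lower, 173 to 197 against 227 to 265. At day 7 the fibroblast sums of tolerizing hearts, 11478 to 13098, lay within the isograft range of 10402 to 16482, and the cardiomyocyte sums of 20561 to 30738 in tolerizing hearts overlapped the 28912 to 45705 of isografts. The endothelial sums did not overlap and were lower, as Igf2 was, with 1391 to 1556 in tolerizing hearts against 1702 to 2462 in isografts. The macrophage sums did not overlap either and were higher, with 2909 to 3875 in tolerizing hearts against 2171 to 2611 in isografts. The part of these cell types in the Igf2 difference was not tested, here or between tolerizing and rejecting hearts. Between tolerizing and rejecting hearts, 4 of 8 fibroblast and 1 of 8 endothelial markers were higher in tolerizing hearts, as Igf2 was. No cardiomyocyte marker was called in that comparison, where 0.885% of all tested probe sets were higher and 0.529% lower. The sums of these lists did not overlap and were higher in tolerizing hearts. Tolerizing against rejecting sums were 20561 to 30738 against 4549 to 20131 for cardiomyocyte and 11478 to 13098 against 3068 to 10873 for fibroblast markers. They were 1391 to 1556 against 1048 to 1209 for endothelial markers. Macrophage sums were lower without overlap, at 2909 to 3875 against 4707 to 5684. The beta-actin 3′ to 5′ ratio was 1.094 to 1.372 in day 7 tolerizing hearts and 1.261 to 1.605 in rejecting hearts, against 1.52 to 1.982 in day 7 isografts. At day 70 it was 1.243 to 1.688 in tolerizing hearts against 1.753 to 1.759 in isografts, so that tolerizing hearts and isografts did not overlap at either day. The same ratio of Gapdh did overlap at both days. It was 0.821 to 0.89 in tolerizing hearts against 0.818 to 0.945 in isografts at day 7, and 0.9 to 1.127 against 0.834 to 0.966 at day 70. No fit was adjusted for the Gapdh ratio. The Igf2 call at day 70 remained after adjustment for the beta-actin ratio (adjusted p = 0.001196).

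**Figure D2:**
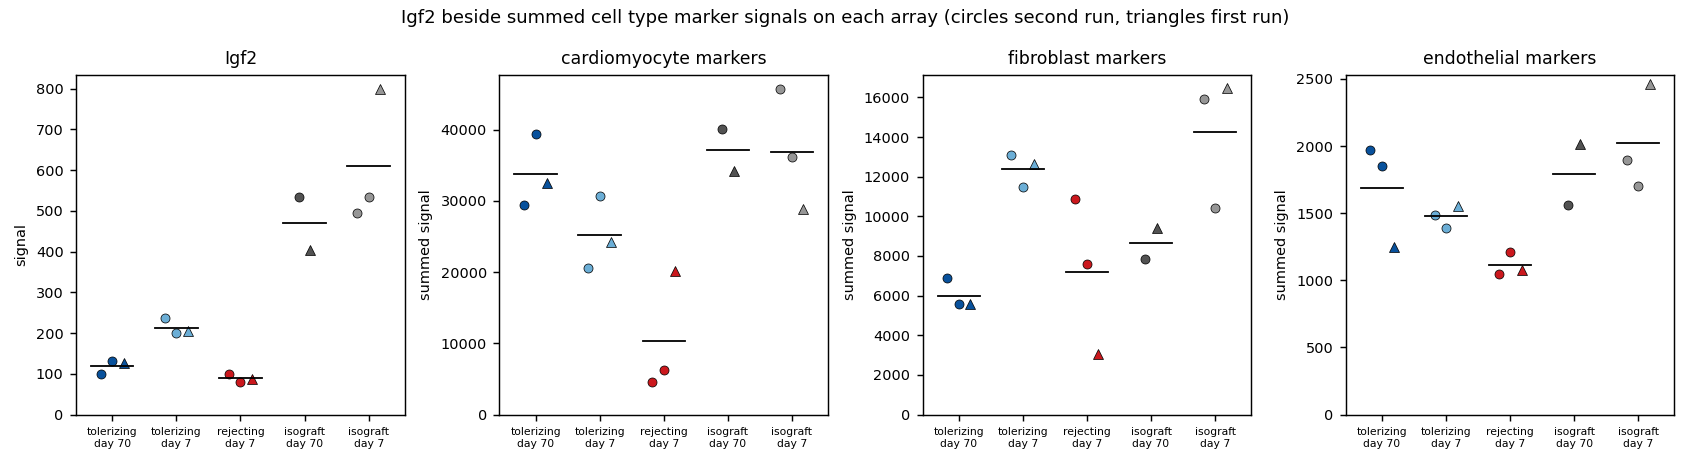
Igf2 signal and the summed signals of 8 cardiomyocyte, 8 fibroblast and 8 endothelial markers on each array, on linear axes from 0, with the 5 groups along the horizontal axis. Points are arrays, triangles the first and circles the second accession run, and bars are arithmetic means. At day 70 the Igf2 signals of 100.2 to 130.5 in tolerizing hearts lie under the 405.0 and 534.4 of isografts, the fibroblast sums are lower without overlap too, and the cardiomyocyte and endothelial sums overlap.

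Igf1, the main mediator of growth hormone action, was called in no comparison. Its brighter probe set, 95545_at, had signals of 339.5, 371.5 and 383.2 in day 70 tolerizing, 389.8, 301.1 and 334.2 in day 7 tolerizing and 405.7, 322.1 and 193.3 in rejecting hearts. The isografts had 447.5 and 346.7 at day 70 and 428.4, 426.5 and 357.8 at day 7. Both tolerizing groups overlapped the isografts of their day, and the third rejecting array was the lowest of all. Rejecting minus isograft hearts differed by -0.46 on the log2 scale with a 95% interval of -0.96 to 0.04 (adjusted p = 0.2128). Tolerizing minus isograft intervals were -0.75 to 0.25 at day 7 and -0.67 to 0.45 at day 70. The dimmer probe set 95546_g_at differed by -1.12 between rejecting and isograft hearts (SE 0.43, adjusted p = 0.09411), and reached an adjusted p of 0.04853 when the first rejecting array was left out.

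Igfals was highest in isografts at day 7 and at or near the floor in allografts. Its probe set 97987_at had signals of 7.8, 9.1 and 10.6 in day 70 tolerizing, 12.4, 8.3 and 13.4 in day 7 tolerizing and 10.4, 12.1 and 5.7 in rejecting hearts. The isografts had 12.7 and 15.3 at day 70 and 35.0, 35.5 and 34.3 at day 7. The 3 day 7 isografts lay close together, between 34.3 and 35.5, and above every other array. Relative to them, Igfals fell by 1.62 in rejecting hearts (SE 0.17, adjusted p = 9.617e-05) and by 1.51 in tolerizing hearts at day 7 (SE 0.17, adjusted p = 0.0005689), with signals under the floor set to it. Of the 3 rejecting arrays 2 lay under the floor, as did 1 of the 3 tolerizing ones, so these differences rest on the floor. Within the first and second runs the log2 differences were -1.64 and -1.61 for rejecting hearts and -1.36 and -1.59 for tolerizing hearts. The tolerizing call was lost after adjustment for the beta-actin ratio (adjusted p = 0.07103).

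Day 70 isografts were lower in Igfals than day 7 isografts by a log2 difference of -1.33 that missed the threshold (SE 0.19, adjusted p = 0.06308). That difference had an adjusted p of 0.02233 without the second day 70 isograft array and 0.0004349 with dim probe sets kept in. At day 70 all 3 tolerizing arrays lay under the floor, against 2 isograft arrays just above it. The tolerizing-isograft difference changed between days by 1.17 (SE 0.26, adjusted p = 0.5115), which passed the threshold only with dim probe sets kept in (adjusted p = 0.01305). The second Igfals probe set, 162450_f_at, exceeded the floor on 1 array, with a highest signal of 12.7, and was not tested. With the floor at the median signal of 41.2, Igfals could not be measured on any array.

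The probe set shared by Igfbp5 and Tmem119, 100566_at, was lower in rejecting hearts than in either other day 7 group. IGFBP5 is a matrix-bound IGF carrier, and TMEM119 is a membrane protein known from bone and microglia, and the array cannot assign the signal to either gene. Signals were 169.4, 289.3 and 206.9 in day 70 tolerizing, 234.1, 255.5 and 217.8 in day 7 tolerizing and 59.3, 104.8 and 85.8 in rejecting hearts. The isografts had 656.4 and 306.0 at day 70 and 429.2, 465.9 and 278.9 at day 7. All 3 rejecting signals lay below every other array. The signal fell by 2.24 in rejecting hearts relative to day 7 isografts (SE 0.31, adjusted p = 0.0004767), with -1.70 and -2.50 within the first and second runs.

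Tolerizing hearts at day 7 were higher than rejecting hearts on this probe set by 1.54 (SE 0.31, adjusted p = 0.02589), with 1.34 and 1.63 within the first and second runs. That call was lost in 10 of 15 alternatives, among them leaving out any one of the 3 tolerizing arrays or either of the first 2 rejecting arrays, with adjusted p between 0.0506 and 0.1336 over these 5. Against isografts, tolerizing hearts differed by -0.70 at day 7 (SE 0.31, adjusted p = 0.3544) and by -1.05 at day 70 (SE 0.34, adjusted p = 0.1331). The day 70 difference reached an adjusted p of 0.03775 without the second isograft array.

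Igfbp6, which binds IGF2 in preference to IGF1, varied widely within groups. Signals of its probe set 103904_at were 165.1, 294.6 and 180.6 in day 70 tolerizing, 111.5, 73.8 and 26.8 in day 7 tolerizing and 51.5, 46.9 and 11.3 in rejecting hearts. The isografts had 110.6 and 30.3 at day 70 and 166.0, 262.4 and 17.6 at day 7. Day 7 isografts spanned 14.9-fold between arrays, and the first-run array was the lowest of its group in all groups but day 70 tolerizing hearts. Rejecting minus isograft hearts differed by -1.60 (SE 0.91, adjusted p = 0.2707), with -0.64 within the first run and -2.09 within the second. The difference passed the threshold with the run as a block (adjusted p = 0.04495), in the second run alone (0.01462) and without the third day 7 isograft array (0.02592). At day 70 tolerizing signals all lay above isograft signals, with a log2 difference of 1.83 (SE 1.02, adjusted p = 0.4284).

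Igfbp3, the chief carrier of IGF in blood, was lower at day 70 than at day 7 in tolerizing hearts on both probe sets without passing the threshold. On 95082_at the signals were 21.7, 34.3 and 47.2 in tolerizing hearts at day 70 and 51.8, 78.0 and 158.5 at day 7, against 40.9 and 24.2 in isografts at day 70 and 67.3, 58.8 and 75.7 at day 7. Neither pair of days overlapped on this probe set. The log2 difference between days was -1.40 in tolerizing hearts (SE 0.41, adjusted p = 0.4111) and -1.09 in isografts (SE 0.46, adjusted p = 0.8936). On the dimmer set 95083_at the tolerizing difference was -1.82 (SE 0.55, adjusted p = 0.4293), and the isograft days overlapped. Its day 70 tolerizing signals were 8.3, 6.6 and 25.7, with 2 under the floor, so that difference rests on the floor. Rejecting hearts had 101.0, 77.4 and 56.1 on 95082_at, which overlapped the day 7 isografts.

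Igfbp7, a secreted protein of vessel walls with low affinity for IGF, had 43.6, 38.7 and 19.5 in day 70 tolerizing, 53.8, 48.2 and 113.4 in day 7 tolerizing and 56.0, 34.9 and 16.1 in rejecting hearts. The isografts had 25.4 and 25 at day 70 and 61.7, 53.0 and 61.2 at day 7. Day 70 lay below day 7 with no overlap in tolerizing hearts and in isografts, by log2 differences of -1.05 (SE 0.46, adjusted p = 0.7801) and -1.21 (SE 0.51, adjusted p = 0.8936). The tolerizing difference was -2.54 within the first run and -0.31 within the second, so it came mostly from the first-run arrays. In isografts the 2 runs gave -1.29 and -1.17.

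Igfbp4, an inhibitory binding protein freed of IGF by the protease PAPP-A, was measured by 3 probe sets and called on none. The set 101571_g_at ranged from 88.3 to 146.4 in day 70 tolerizing, 95.9 to 181.0 in day 7 tolerizing and 32.4 to 276.7 in rejecting hearts, against 131.9 to 141.7 in day 70 isografts and 203.5 to 454.2 in day 7 isografts. Day 7 tolerizing hearts lay below day 7 isografts on it, with a log2 difference of -1.14 (SE 0.61, adjusted p = 0.4832). Its runs disagreed between rejecting and isograft hearts, with -3.81 within the first and 0.11 within the second. The day 7 tolerizing difference of 94222_at was -0.40 (SE 0.55, adjusted p = 0.8587) and its groups overlapped. The third set, 101570_at, stayed between 3.1 and 17.2, close to the floor.

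Igfbp2, a carrier of both growth factors that is abundant before birth, overlapped between tolerizing hearts and isografts at each day and was called in no comparison. Its probe set 98627_at ranged from 26.7 to 39.9 in day 70 tolerizing, 25.6 to 35.5 in day 7 tolerizing and 18.9 to 56.3 in rejecting hearts, against 27.0 to 27.8 in day 70 isografts and 30.6 to 45.9 in day 7 isografts. Its 95% interval for rejecting minus isograft hearts was -0.90 to 0.71, and that for day 7 tolerizing minus isograft hearts was -1.10 to 0.51.

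Over the family, 13 of the 15 probe sets passed the filter of a signal above the floor on at least 3 arrays. In rejecting against isograft hearts 3 of the 13 were lower and none higher. Over all tested probe sets 17.7% were called in that comparison, 8.54% as higher and 9.18% as lower. The median log2 difference was -0.89 over the 13 and 0.04 over all tested probe sets, and 11 of the 13 differences were negative. Without the third rejecting array the same 3 calls were made, but the medians were -0.33 over the 13 and 0.12 over all tested probe sets, with 9 differences negative. In tolerizing against isograft hearts 2 were lower at day 7, where 1.69% of all probe sets were called, 0.943% as higher and 0.75% as lower. At day 70 1 was lower, where 3.2% were called, 2.35% as higher and 0.856% as lower. In tolerizing against rejecting hearts 2 were higher, where 1.41% were called, 0.885% as higher and 0.529% as lower. The 6 comparisons share groups, so their counts are not independent of each other.

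No family probe set was called by limma between days in tolerizing hearts. At an unadjusted limma p under 0.05 there were 4 of the 13, against 645 of all 10395 tested probe sets. At the adjusted threshold 0.0385% of all probe sets were called. With the replicate number as a block the count over all probe sets was 12, against 4 without it, and none was in the family. None was called between days in isografts or for the change of the tolerizing-isograft difference between days, where 0% of all probe sets were called. At an unadjusted limma p under 0.05 there were 3 of the 13 between isograft days, against 559 of 10395. For the change there was 1 of the 13, against 409 of 10395.

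**Figure D3:**
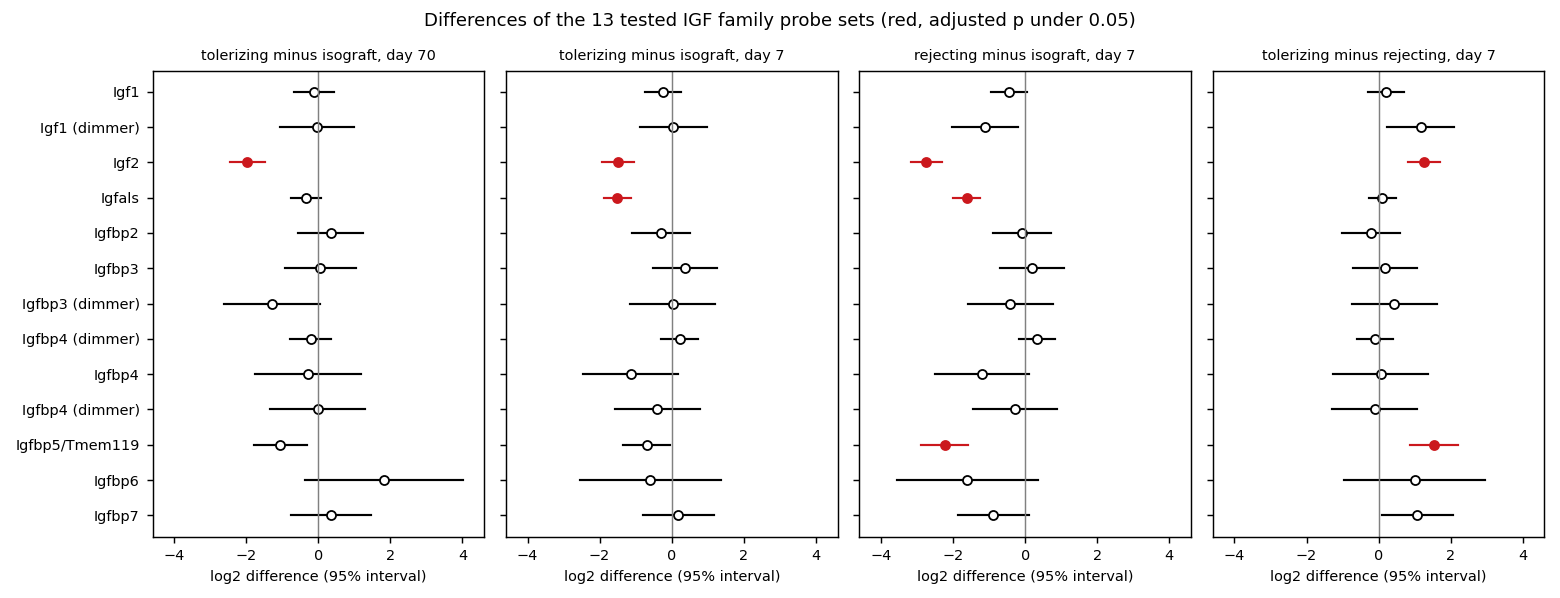
Log2 differences of the 13 tested family probe sets in 4 comparisons, with 95% intervals as horizontal lines. Filled red points have an adjusted p under 0.05 in the limma fit, and dimmer probe sets of a gene are marked. Igf2 is red in all 4 panels, at -1.97, -1.48, -2.74 and 1.26 from left to right.

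The other genes of the pathway were taken as 65 genes in 6 lists, of which 49 were tested. In rejecting against isograft hearts 4 of the 49 were higher and 8 lower, against 8.54% higher and 9.18% lower over all tested probe sets. Of 3 tested receptors 1 was lower in rejecting than in isograft hearts. Igf1r, the signalling receptor, was called in no comparison, with a log2 difference of -0.16 and a 95% interval of -0.79 to 0.47 between rejecting and isograft hearts. Insr, the insulin receptor, was called in none either, and had 22.7, 26.6 and 20.8 in day 7 tolerizing hearts against 7.9, 13.3 and 9.8 in isografts. These did not overlap, and the log2 difference of 0.99 missed the threshold (SE 0.30, adjusted p = 0.1457). The isograft signals 7.9 and 9.8 lay under the floor, so this difference rests on the floor. Igf2r, the clearing receptor for IGF2, had 243.3, 244.5 and 224.4 in rejecting against 370.5, 298.2 and 404.1 in isograft hearts and fell by 0.58 (SE 0.17, adjusted p = 0.02764). That call was lost in 7 of 15 alternatives, among them leaving out any one of the rejecting arrays or the first or the third isograft array, with adjusted p up to 0.1263.

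Genes of growth hormone signalling, which drives Igf1 transcription, moved in both directions. Socs2, a growth hormone-induced inhibitor of the growth hormone receptor, had 61.6, 57.3 and 65.2 in rejecting against 246.4, 164.3 and 217.4 in isograft hearts. It fell by 1.75 (SE 0.26, adjusted p = 0.0007072), a call that held in all 15 alternatives. Ghr, the receptor itself, differed by -0.83 (SE 0.26, adjusted p = 0.04103), lost in 9 of 15 alternatives, among them leaving out any array but the second rejecting one, with adjusted p up to 0.1506. A second Ghr probe set, 99108_s_at, differed by -0.80 and was not called (adjusted p = 0.0593). The cytokine-induced inhibitors Socs3 and Socs1 rose by 1.94 (SE 0.42, adjusted p = 0.005972) and 2.13 (SE 0.62, adjusted p = 0.02973). Socs3 held in all 15 alternatives and was higher by 2.58 on a second probe set (adjusted p = 0.004493), whereas Socs1 was lost in 6, among them leaving out the second or the third rejecting array or the first or the second isograft array, with adjusted p up to 0.1342. Stat5a, Stat5b, Jak2, Cish and Gh were not called.

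Of the imprinted genes and Igf2 mRNA binding proteins, Cdkn1c and Sgce were lower in rejecting hearts. Cdkn1c, a cell cycle inhibitor in the same imprinted region as Igf2, had 22.2, 16.2 and 9.5 in rejecting against 66.7, 103.6 and 68.1 in isograft hearts, with no overlap, and fell by 2.30 (SE 0.35, adjusted p = 0.0008756). In tolerizing hearts at day 7 it had 25.1, 27.5 and 18.8 and fell by 1.73 relative to isografts (SE 0.35, adjusted p = 0.02438), a call lost in 10 of 15 alternatives. At day 70 tolerizing hearts had 20.6, 29.5 and 22.2 against 86.5 and 43.1 in isografts, a difference of -1.36 (SE 0.39, adjusted p = 0.0864). Sgce, the sarcoglycan epsilon of the dystrophin complex, fell by 1.23 in rejecting hearts (SE 0.26, adjusted p = 0.004792). Sgce lost that call with the 2 groups fitted alone (adjusted p = 0.05972). The 5 other tested genes of the list were not called, with differences from -0.73 for Mest to 0.11 for Dlk1.

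In the wider binding protein family, Ccn5, a matricellular protein also known as Wisp2, had 15.4, 3.8 and 14.9 in rejecting against 105.4, 56.4 and 59.7 in isograft hearts. It fell by 2.38 (SE 0.42, adjusted p = 0.001864), and lost the call with the floor at 41.2. Adam9, a membrane protease that can cleave IGFBP5, rose by 1.25 (SE 0.34, adjusted p = 0.01961). Its call was lost without the second rejecting or the second isograft array and after adjustment for the beta-actin ratio, with adjusted p up to 0.09043. In the signalling list of 17 tested genes, Ptpn1, a phosphatase of the insulin receptor, rose by 1.52 (SE 0.36, adjusted p = 0.01013), a call lost in the second run alone (adjusted p = 0.05851). Foxo3, a transcription factor restrained by Akt, fell by 1.11 (SE 0.24, adjusted p = 0.006571), and Akt2 fell by 0.87 (SE 0.26, adjusted p = 0.03413), with the Akt2 call lost in 8 of 15 alternatives, among them leaving out any array but the third rejecting one.

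Between tolerizing and rejecting hearts 3 of the 49 were higher and none lower, against 0.885% higher and 0.529% lower over all tested probe sets. Socs2 had 153.0, 158.0 and 148.0 in tolerizing against 61.6, 57.3 and 65.2 in rejecting hearts and was higher by 1.32 (SE 0.26, adjusted p = 0.02242). Ccn5 was higher by 1.87 (SE 0.42, adjusted p = 0.04422) and Sgce by 1.14 (SE 0.26, adjusted p = 0.04635). Each of these 3 calls was lost in at least 8 of 15 alternatives. In tolerizing against isograft hearts, Cdkn1c was the called gene at day 7 and Socs2 at day 70, where Socs2 fell by 1.19 (SE 0.29, adjusted p = 0.03878) and lost the call in 10 of 14 alternatives. Over all tested probe sets 0.75% were lower at day 7 and 0.856% at day 70 in these comparisons. No gene of the lists was called between days or for the change between days. All 17 calls on pathway genes had the same sign within both accession runs.

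**Figure D4:**
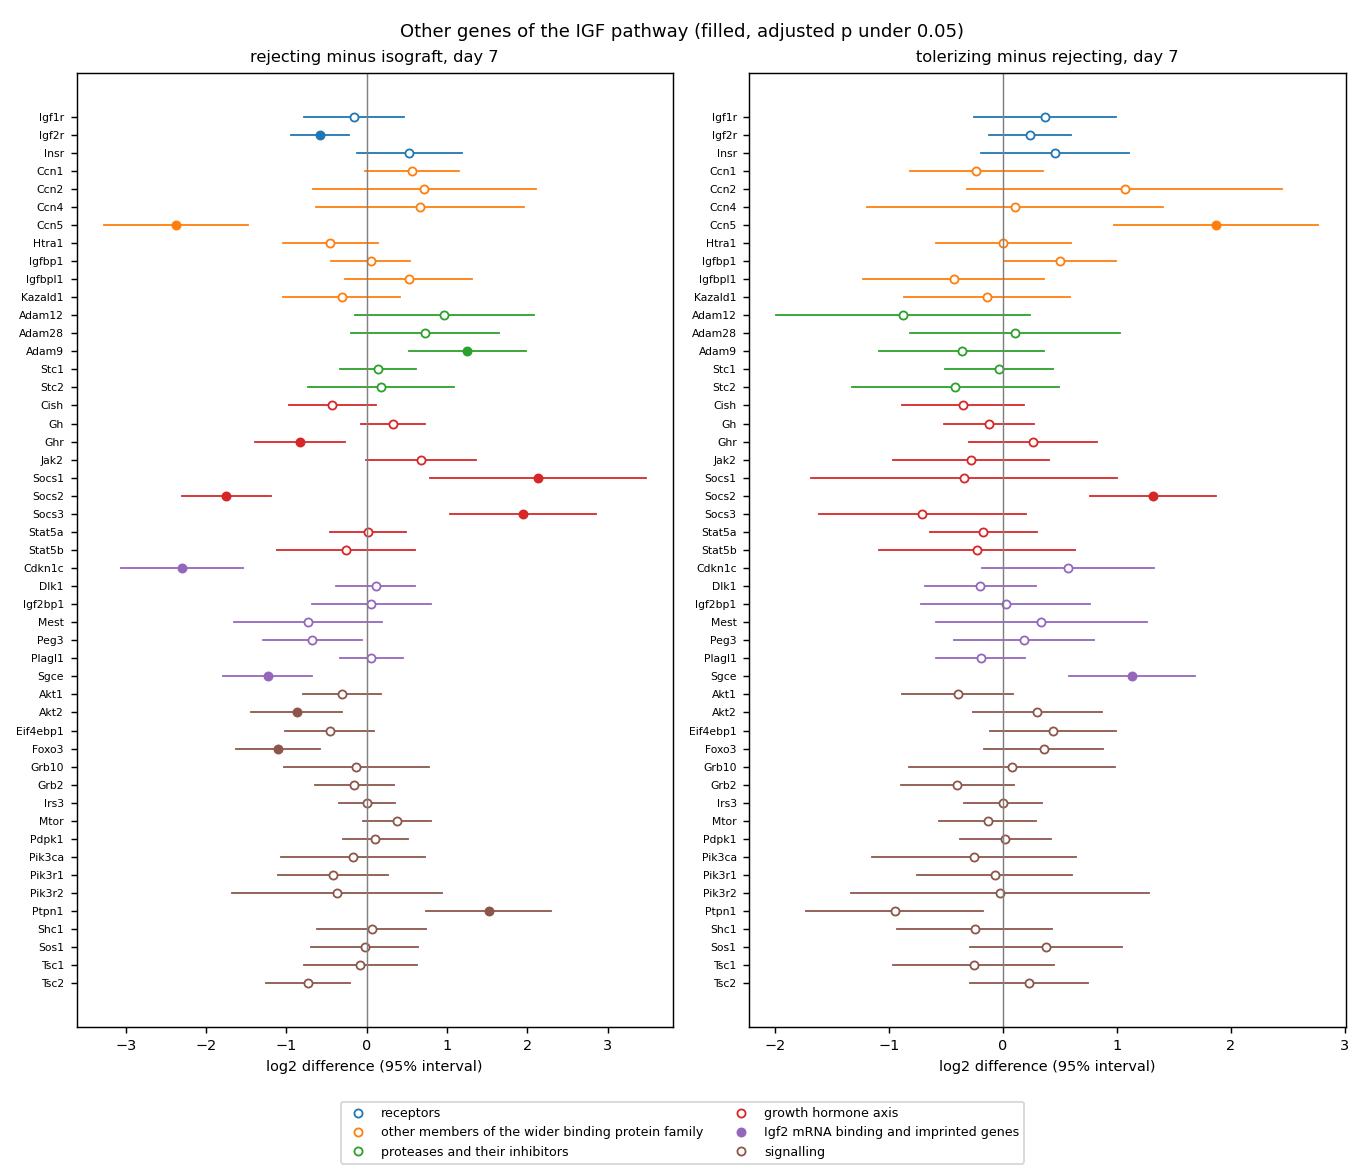
Log2 differences of the 49 tested pathway genes outside the family, by list, in rejecting against isograft hearts and in tolerizing against rejecting hearts at day 7. Lines are 95% intervals and filled points have an adjusted p under 0.05. Of the 12 filled points on the left, Ccn5 at -2.38 and Cdkn1c at -2.30 are the lowest and Socs1 at 2.13 is the highest, and the 3 filled points on the right are all above 0.

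Genes with patterns most like those of the members were sought among 7362 named genes by the root mean square difference of log2 signals over the 14 arrays, each centred on its own mean. The 3 closest to Igf2 were Car8 at 0.393, Prkce at 0.452 and Map1lc3a at 0.459, where Igf2 itself had a root mean square of 1.09 about its mean. Car8 averaged 12.4 in day 70 tolerizing, 14.7 in day 7 tolerizing and 9.4 in rejecting hearts, against 57.2 in day 70 isografts and 50.7 in day 7 isografts. Its rejecting mean lay under the floor of 11.0, as did that of Prkce, 9.7. Signals under the floor were set to it, so these 2 likenesses rest in part on the floor. The 3 closest to Igfbp3, which itself had 0.747, were Mt2 at 0.399, Sema7a at 0.472 and Gnl3 at 0.489. The 3 closest to Igfbp7, which itself had 0.727, were Fstl1 at 0.440, Ppic at 0.443 and Pros1 at 0.452. Igf1 varied little, with a root mean square of 0.291, and was closest to Itsn1, Fbxw2 and Ephb6. For Igfbp2, with a root mean square of 0.401, the closest were Klf3, Pex14 and H6pd at 0.152 to 0.183. For Igfbp4, with 0.874, they were Mdk, Efnb1 and Efnb2 at 0.444 to 0.455. Igfbp6, with 1.427, had no gene closer than Slc5a6 at 0.762, followed by Rax at 0.817 and Osbpl9 at 0.931.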

How the data were processed

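Total RNA of transplanted hearts was hybridised to 14 single-colour arrays. The deposited table holds 1 signal intensity per probe set and array on a linear scale, already summarised and scaled by the authors. Which software and settings produced the signals is not given in the sources used. Values ran from 0 to 10828.7.

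Groups came from the sample titles. Signals under the floor of 11.0 were set to it, log2 was taken, and 5 group means were fitted to all 14 arrays with limma 3.58.1 in R 4.3.3 (intensity trend, two-sided). Probe sets entered when their signal exceeded the floor on 3 or more arrays, without 66 control probe sets. The threshold was an adjusted p of 0.05 over 10395 probe sets. The script was tested on simulated data. The number of arrays limits the precision.

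Probe sets were named through the platform annotation, which gave 1 gene for 10833, several for 396 and none for 1193. A synonym of Igf2, M6pr, is now the symbol of another gene, whose probe set was not counted. A gene with several probe sets was represented by the brightest.

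Named genes were all 9 members, up to 4 called genes per pathway list and comparison with the smallest p, and the 3 genes closest in pattern to each member above the floor on all arrays. Igf1r, Insr, Mest, Dlk1 and the uncalled growth hormone genes were named after their values were seen. Members and lists were chosen with earlier results of these data known.

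Replicate numbers from the titles were checked as pairs by correlating deviations from group means. Between the tolerizing days the 3 correlations were 0.34, 0.253 and 0.268, all over 0.1, and the numbers were taken as pairs there. The titles name no pairing, and tolerizing arrays with the same number also came from the same accession run. Pairing and a shared run cannot be told apart here. In the other comparisons at least 1 correlation was under 0.1.

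Alternatives were quantile normalization, a floor at the 50th percentile, log2(value + 16), no filter, the accession run or the replicate number as a block, the second run alone, the beta-actin ratio as a covariate, 2 groups alone and each array left out in turn.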

Additional observations from a re-analysis of the deposited data

How the results depend on the processing

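Igf2 in rejecting against isograft hearts kept its call in all 15 alternatives, with log2 differences of -2.88 to -2.53. The shared Igfbp5 and Tmem119 probe set did so in 15 and Igfals in 14. No result reversed. Counts of called family probe sets moved as follows, and the cause was not tested. For rejecting against isograft hearts the 3 calls became 2 with the floor at the 50th percentile, where Igfals could not be measured, and 4 with the accession run as a block and in the second run alone, where Igfbp6 was added. For tolerizing against isograft hearts at day 7 the 2 calls became 1 with the floor at the 50th percentile, 1 in the second run alone, 1 with 2 groups alone and 0 with the beta-actin covariate. For tolerizing against rejecting hearts the 2 calls became 1 with that floor, 1 without the filter, 1 in the second run alone, 1 with the covariate and 0 with 2 groups alone. The day 70 call became 0 with 2 groups alone. Without the filter, Igfals gave 1 call between isograft days and 1 for the change between days, against 0 in each. With each array left out in turn the counts were 3 to 4 for rejecting against isograft hearts, 2 to 2 and 1 to 2 for tolerizing against isograft hearts at days 7 and 70, 1 to 2 for tolerizing against rejecting hearts, 0 to 0 between tolerizing days, 0 to 1 between isograft days and 0 to 0 for the change. Over all probe sets these ranges were 1307 to 2168, 76 to 136, 82 to 337, 36 to 771, 0 to 34, 0 to 32 and 0 to 2, and the highest counts with rejecting hearts, 2168 and 771, came without the third rejecting array. The family medians without that array were added after seeing the data. Where leaving out 1 array leaves 1 in a group, that array is assumed to vary like the other groups.

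With the replicate number as a block, the counts were 3, 2, 2, 1, 0, 0 and 0 in the order rejecting against isograft, tolerizing against isograft at day 7, tolerizing against rejecting, tolerizing against isograft at day 70, the tolerizing days, the isograft days and the change, equal to those without the block. Between the tolerizing days, where the numbers were taken as pairs, the block gave 12 called probe sets over the whole array, against 4 without it. None of them was in the family. No call on a family probe set changed under the block, whereas Ghr in rejecting hearts, Sgce against rejecting hearts and Socs2 at day 70 lost theirs.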
